A study of Homo sapiens with 3 samples.

Results

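The genes described here make up the DNA replication machinery and the S-phase programme around it. They are 46 genes chosen by name, from the pre-replication complex to the enzymes that supply deoxynucleotides. Every probe annotated to them was read, and a gene's value came from its brightest probe above background on at least 1 array. Of the 46, 45 have a probe and 40 were measured, meaning that a probe was above background on at least 1 array, out of 8270 genes measured in all. They were read in RWPE1, a benign human prostate epithelial cell line. The cells had been infected with a retrovirus that carried the empty vector PMN, MYC, or a constitutively active mutant of the kinase PI3K (E545K). All 3 sublines were grown in the same keratinocyte serum-free medium with pituitary extract and EGF and received no further treatment. Whether each subline was a clone or a pool is not stated in the labels. Each subline was read on 1 array: the differences below have no replicates behind them, and none was tested.

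Before S phase, the origin recognition complex with CDC6 and CDT1 loads the MCM2 to MCM7 helicase onto origins, a step called licensing. CDC45 and the GINS complex then turn the helicase on, and DNA polymerases copy the strands behind it, held to the DNA by the sliding clamp PCNA, which the RFC complex loads. Most of these genes are transcribed in late G1 and S phase under E2F factors, which the retinoblastoma protein RB restrains and cyclin E with its kinase partner releases. RWPE1 was immortalised with a human papillomavirus, whose E7 protein binds RB, and all 3 sublines share that background. MYC binds the E-box motif and is known to raise E2F and cyclin expression in many cells, and PI3K signalling is known for promoting entry into S phase.

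The E2F motif recurs in the promoters of these genes, so the stretches that hold it are shown for some of the genes whose signals are contrasted below. Only genes with these letters could be shown, and TK1, RRM1, RRM2 and CCNE1 have none in their windows. The first 6 stretches belong to genes with lower signal on the MYC-labelled array than on the PI3K array. The last 2, of PCNA and TYMS, belong to genes with higher signal there. Sequences are RefSeq promoter windows of GRCh38.p14, each a stretch of 100 bases that ends at the base before the annotated start, except in MCM6, where the stretch lies further upstream. Capitals mark E2F letters (TTTCCCGC, TTTGGCGC or TTTCGCGC on either strand, so that GCGGGAAA is the first of them on the other strand) and, in MCM7 alone, also the E-box CACGTG.
CDT1 (chr16:88803689-88803788, plus strand): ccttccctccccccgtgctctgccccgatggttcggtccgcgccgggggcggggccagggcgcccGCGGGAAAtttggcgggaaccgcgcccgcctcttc
MCM6 (chr2:135876504-135876603, minus strand): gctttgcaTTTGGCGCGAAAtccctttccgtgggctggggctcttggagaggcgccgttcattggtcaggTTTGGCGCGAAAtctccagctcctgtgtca
MCM7 (chr7:100101398-100101497, minus strand): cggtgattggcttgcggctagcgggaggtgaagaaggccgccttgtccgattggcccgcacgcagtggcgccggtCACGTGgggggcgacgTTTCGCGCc
GINS2 (chr16:85688955-85689054, minus strand): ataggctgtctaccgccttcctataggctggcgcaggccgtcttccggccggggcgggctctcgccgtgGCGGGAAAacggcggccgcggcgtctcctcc
POLA2 (chr11:65261862-65261961, plus strand): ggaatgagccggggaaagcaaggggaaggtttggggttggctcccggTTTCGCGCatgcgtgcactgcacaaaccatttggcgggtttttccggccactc
E2F2 (chr1:23531234-23531333, minus strand): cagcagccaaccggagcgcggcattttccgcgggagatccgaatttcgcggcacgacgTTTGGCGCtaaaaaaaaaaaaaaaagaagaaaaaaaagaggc
PCNA (chr20:5126623-5126722, minus strand): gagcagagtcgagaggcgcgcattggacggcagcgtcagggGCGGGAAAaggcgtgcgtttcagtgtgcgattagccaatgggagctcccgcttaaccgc
TYMS (chr18:657553-657652, plus strand): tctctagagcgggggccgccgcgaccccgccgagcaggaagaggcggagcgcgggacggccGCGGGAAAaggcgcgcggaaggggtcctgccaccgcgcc

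In MCM6 the letters occur at 2 places, and at each of them TTTGGCGC overlaps the reverse of TTTCGCGC. Among the 39 members with a promoter window (250 bases before to 50 after a start), 20 held E2F letters in at least 1 window, or 51.3%, against 3.30% of all 27305 genes in the table. Licensing genes held them in 6 of 8 cases, helicase activation genes in 3 of 5, polymerase genes in 4 of 7, fork genes in 3 of 8 and dNTP supply genes in 1 of 4, which is TYMS. The E-box CACGTG was in 6 of the 39 (15.4%, against 8.77% of all genes), namely MCM2, MCM7, FEN1, TIMELESS, CHAF1A and UNG. A match is a description of letters, and the absence of one says only that these letters are not in the window.

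**Figure D1:**
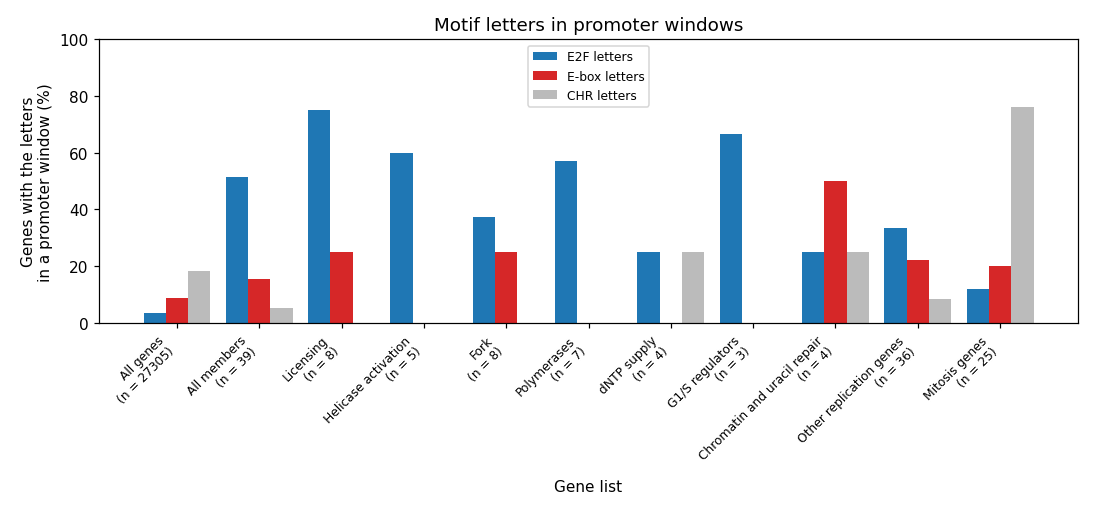
Percentage of genes (vertical axis) whose RefSeq promoter window holds E2F, E-box or CHR letters, for each gene list (horizontal axis, n is the number of genes with a window). E2F letters are in 51.3% of the members with a window against 3.30% of all genes, and CHR letters, TTTGAA, are most frequent among the mitosis genes.

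The values are scaled signals: the linear signal of the vector array, and for the other arrays that signal multiplied by the authors' deposited difference, so that all 3 stand on the vector array's scale. Probes above background numbered 9097 to 9700 per array of 24526, and on the PI3K array this call rests on a substitute cut-off of 284 taken from the other arrays. The MYC gene, read by 1 probe, had scaled signals of 6229, 5229 and 3520 on vector, MYC-labelled and PI3K arrays, so that probe shows no rise on the MYC-labelled array. Each direction drawn from that array therefore rests on its label. PIK3CA was named for 0 probes. Of 8 epithelial markers 7 have a probe, and 6 or 7 of them were above background on every array, while TP63 was not analysed here. The endothelial, fibroblast and neuroendocrine markers were below background on all 3 arrays, and of the leukocyte markers only CD14 passed, on the vector array. As a technical error, 2 probes of 1 gene differed in the log2 difference with an SD, divided by the square root of 2, of 0.20 for the MYC-labelled array against the vector, 0.21 for PI3K against the vector and 0.18 between the 2 oncogene arrays (719 genes). It was taken from probes above background on all 3 arrays. It leaves out variation that both probes of a gene share, such as that between cultures, so it understates the error of a difference between sublines.

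On the PI3K array the replication genes lay higher than on the vector array by a small amount. Of 40 measured members, 33 were above 0 (82.5%), where 55.1% of all genes measured were, and their median log2 difference was 0.32 against 0.05 for all genes. At least 1.5-fold higher were 7 members (17.5%, background 8.54%): CDT1, MCM4, MCM10, POLE, RRM2, CCNE1 and E2F2. At least 1.5-fold lower were 0 (background 9.78%), and 0 reached 2-fold either way (background 1.20% higher and 4.03% lower). A selection made after seeing the data kept the 31 members with signal at least 2 times the background cut-off on all arrays. Of these, 3 were at least 1.5-fold higher, a share near the 8.54% of all genes measured. The share among all genes kept by that selection was not counted. Their median was 0.21, against 0.07 for the 4703 genes kept in the same way. POLE, RRM2, CCNE1 and E2F2 are among the dimmer members left out. Probes below background on all 3 arrays were shifted by 0.27 in this comparison and by 0.31 on the MYC-labelled array, against 0.08 and 0.10 for probes above background on all of them, and the part of this shift in dim members was not tested.

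On the MYC-labelled array the same genes showed no common shift from the vector. Of 39 measured members, 24 were above 0 (61.5%, background 56.4%) and 15 below (background 43.6%), with a median of 0.06 against 0.07 for all genes. The cyclin gene CCNE1 was at least 2-fold higher (1 member, 2.56%, background 2.31%) and 0 were at least 2-fold lower (background 4.77%). At least 1.5-fold lower was TK1 alone (background 10.5%), and CCNE1 was also the 1 member at least 1.5-fold higher (background 10.8%). The members spread less than genes in general: the middle of the range, from the 25th to the 75th percentile, ran from -0.13 to 0.19, against -0.25 to 0.34 for all genes.

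Set directly against the PI3K array, the MYC-labelled array had lower signal for 32 of 40 members (80%, background 48.9%), with a median of -0.24 against 0.01. At least 1.5-fold lower were 7 members (17.5%, background 8.14%): TK1, E2F2, RRM2, CDT1, MCM6, GINS2 and RRM1. By the measured values 3 of these passed 2-fold (background 2.63%), and only TK1 did once genes dim on 1 of the arrays were set to their bound. Above 0 were 8 (background 51.1%), with 0 at least 1.5-fold higher (background 9.15%) and 0 at least 2-fold higher (background 2.29%). The 3 comparisons are not independent, because each array enters 2 of them. In such bulk RNA, fewer cells in S phase and less RNA per cell cannot be told apart.

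**Figure D2:**
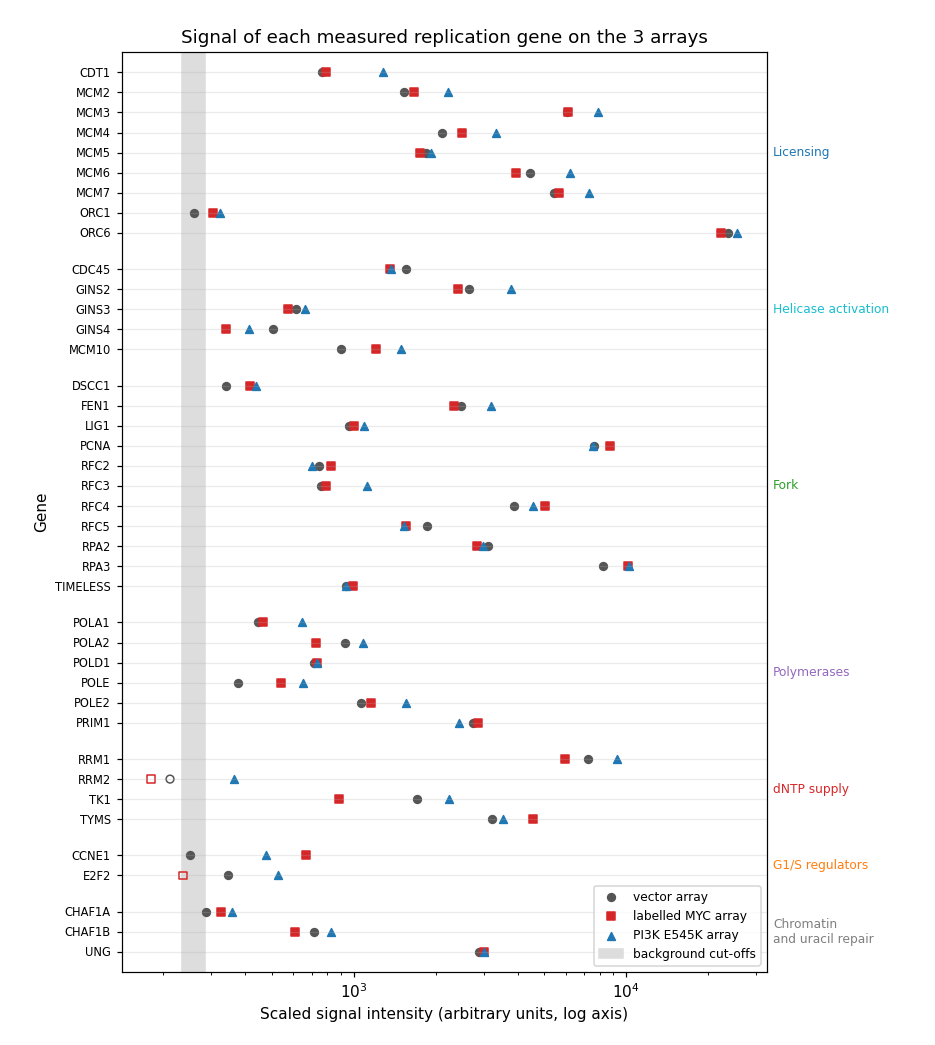
Scaled signal (horizontal log axis, arbitrary units) of each of the 40 measured members on vector, MYC-labelled and PI3K arrays, grouped by role. Open symbols are below background, and the grey band spans the background cut-offs from 233 to 284; TK1 and RRM1 show MYC below vector below PI3K, while levels of different genes come from different probes and are not comparable.

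Licensing genes went the same way on the PI3K array. ORC1 and ORC6 belong to the origin recognition complex, CDT1 brings the helicase to it, and MCM2 to MCM7 form the helicase ring. All 9 measured licensing genes were above 0 on the PI3K array (55.1% of all genes), with a median of 0.43. All 9 were lower on the MYC-labelled array than on the PI3K array (48.9% of all genes), with a median of -0.37. On the MYC-labelled array against the vector their median was 0.05, with 6 above 0 (56.4% of all genes) and 3 below.

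CDT1 had scaled signals of 763.5 on the vector array, 791 on the MYC-labelled array and 1279 on the PI3K array. The PI3K array stood apart from the other two, with log2 differences of 0.74 from the vector and -0.69 for the MYC-labelled array against it. MCM6 had signals of 4436, 3936 and 6220.

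Among the helicase subunits MCM6 was the one with the largest gap between the oncogene arrays, -0.66, and it was 0.49 above the vector on the PI3K array. MCM4 had signals of 2109, 2497 and 3327 on vector, MYC-labelled and PI3K arrays. Its 2 probes gave 0.66 and 0.80 for PI3K against the vector, the largest difference among the 6 subunits. MCM2 had signals of 1525, 1670 and 2214, MCM3 6063, 6138 and 7868, and MCM7 5429.8, 5672 and 7336.

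These 3 subunits kept nearly the same signal on the vector and MYC-labelled arrays, at log2 differences of 0.13, 0.02 and 0.06, and were 0.54, 0.38 and 0.43 higher on the PI3K array than on the vector array. MCM5 was the exception in the ring, with signals of 1838, 1753 and 1925 that differed by no more than 0.13 on the log2 scale, less than the technical error. Over MCM2 to MCM7 the median was 0.46 for PI3K against the vector and -0.39 for the MYC-labelled array against PI3K. ORC6 had signals of 23685.5, 22322 and 25666, and ORC1 260, 304 and 323. Neither differed between the oncogene arrays by much more than the technical error, at -0.20 for ORC6 and -0.09 for ORC1, and ORC1 was close to background. The PI3K difference of ORC6 from the vector, 0.12, became -0.06 with normexp and quantile normalisation. CDC6, which loads the helicase with CDT1, was below background on all arrays, with signals of 119 to 167.

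Helicase activation genes were more mixed against the vector. GINS2, a subunit of the GINS complex, had signals of 2660.3, 2420.5 and 3792 on vector, MYC-labelled and PI3K arrays. It followed the MCM genes, at 0.51 for PI3K against the vector and -0.65 between the oncogene arrays. MCM10, which helps start the helicase, had signals of 896, 1211 and 1489 and was higher on both oncogene arrays, by 0.44 on the MYC-labelled array and 0.73 on the PI3K array. Its second probe was above background on the PI3K array only.

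The remaining subunits did not share rises of this size over the vector. GINS4 was lower than the vector on both oncogene arrays, with signals of 504, 339 and 413 and log2 differences of -0.57 and -0.29. CDC45 had signals of 1553, 1362.5 and 1366, at -0.19 on both, and GINS3 had 614, 572 and 661. The differences of CDC45 and GINS3 from the vector were within the technical error. GINS1 was below background on all arrays, at 169.5 to 245. Of the 5 measured genes 3 were above 0 on the PI3K array (55.1% of all genes), with a median of 0.11. On the MYC-labelled array 1 was above 0 (56.4% of all genes), with a median of -0.14. Between the oncogene arrays all 5 were below 0 (48.9% of all genes), as the licensing genes were. Their median there was -0.29, and CDC45 was level at -0.0034.

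**Figure D3:**
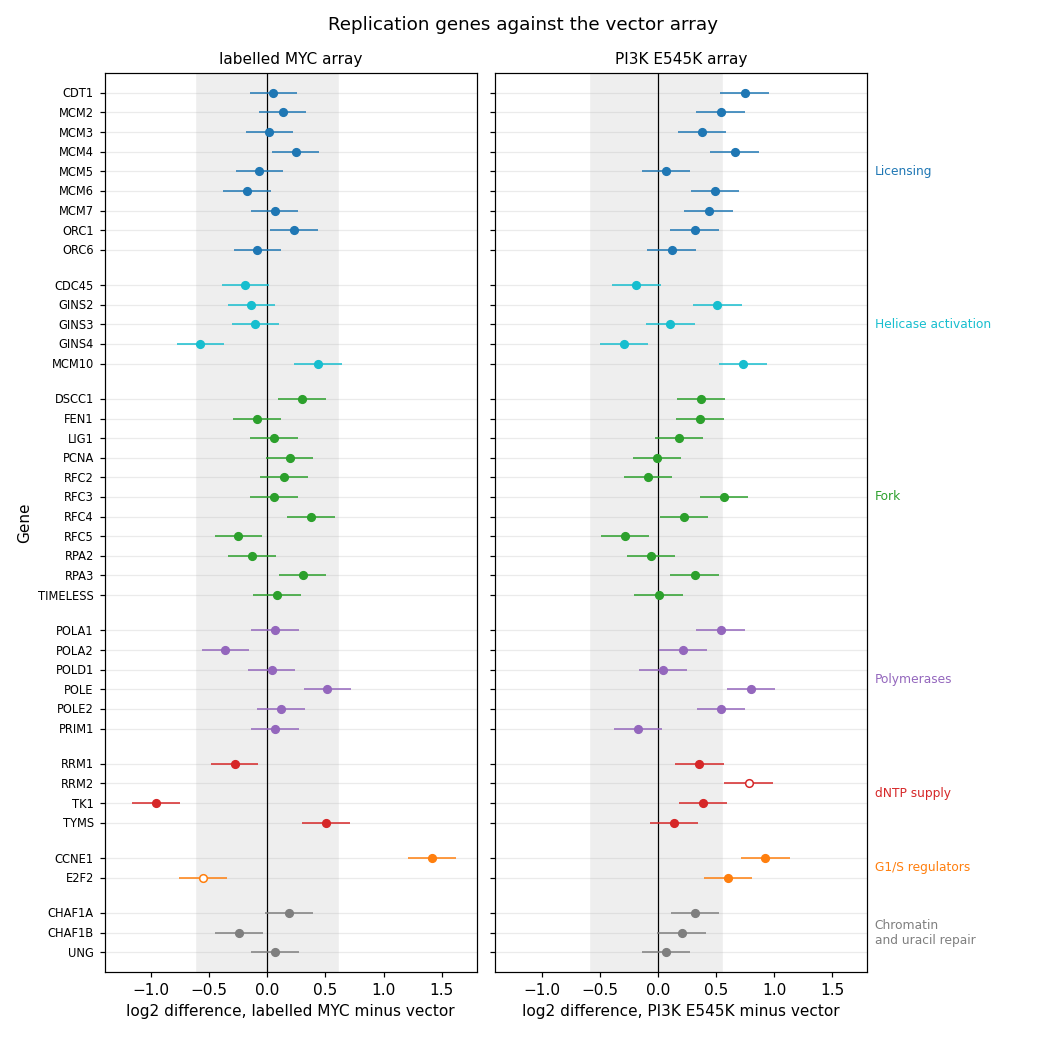
Log2 difference from the vector array (horizontal axes) of each measured member on the MYC-labelled array (left) and the PI3K array (right), grouped by role. Bars are plus and minus 1 technical SD from probe pairs (0.20 and 0.21), open points are below background on 1 of the arrays, and the grey band runs from the 10th to the 90th percentile of all genes; the licensing genes lie around 0 on the left and above 0 on the right.

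Fork genes had no common direction between the oncogene arrays. Their median was 0.08 on the MYC-labelled array and 0.18 on the PI3K array. Between the 2 it was -0.01, with 5 of 11 above 0 (51.1% of all genes). PCNA, the sliding clamp, had signals of 7633, 8721 and 7585 on vector, MYC-labelled and PI3K arrays. It was level between the vector and PI3K arrays (-0.0091) and 0.20 higher on the MYC-labelled array than on the PI3K array, about the size of the technical error.

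The clamp loader subunits differed among themselves. RFC4 had signals of 3880.1, 5026 and 4537 and was 0.37 above the vector on the MYC-labelled array, where its second probe gave 0.36. RFC2 had 746, 823 and 704, and RFC5 had 1856, 1562 and 1527, lower than the vector on both oncogene arrays at -0.25 and -0.28. The probes of 2 loader genes went different ways. The brighter RFC3 probe had signals of 759, 791 and 1123, which gives 0.56 for PI3K against the vector, while the second had 405, 489 and 444, which gives 0.13. Between the oncogene arrays the RFC3 probes had opposite signs, at -0.51 and 0.14, so RFC3 has no settled direction there. The RFC2 probes also differed in sign, at -0.08 and 0.22 for PI3K against the vector. Between the oncogene arrays they gave 0.23 and -0.13, and the second RFC2 probe was not above background on the MYC-labelled array.

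FEN1 and LIG1 process and seal the fragments of the lagging strand. FEN1 had signals of 2484, 2339 and 3190 (0.36 for PI3K against the vector, -0.45 between the oncogene arrays) and so moved like the helicase genes. LIG1 had 961, 1000.2 and 1091. RPA2 and RPA3 are subunits of the protein that coats single-stranded DNA. RPA3 had 8250.5, 10180.2 and 10260.3, higher on both oncogene arrays by 0.30 and 0.31, whereas RPA2 had 3101, 2828.5 and 2981. DSCC1, which works in an alternative clamp loader, had 339, 417.5 and 438.5, and the fork protection gene TIMELESS 935, 991.5 and 938. LIG1, RPA2 and TIMELESS differed from the vector by less than the technical error on both oncogene arrays.

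Polymerase genes resembled licensing genes in their medians, at 0.07 on the MYC-labelled array, 0.38 on the PI3K array and -0.35 between them, and were less even. POLA1, the catalytic subunit of polymerase alpha, had signals of 445, 466 and 646 on vector, MYC-labelled and PI3K arrays. POLE2, a subunit of polymerase epsilon, had 1067.5, 1157.5 and 1552. Both were 0.54 above the vector on the PI3K array and little different from it on the MYC-labelled array, at 0.07 and 0.12.

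POLE, the catalytic subunit of polymerase epsilon, had 376.5, 539 and 654, at 0.52 and 0.80. POLA1 and POLE are left out when dim genes are, and the part of the shift of dim probes in them was not tested. POLA2, the second subunit of polymerase alpha, had 929.9, 724 and 1078, and was the one polymerase gene below the vector on the MYC-labelled array, at -0.36. POLD1, the catalytic subunit of polymerase delta, had 713, 732 and 734. PRIM1, the primase that lays down the RNA primer, had 2736, 2863 and 2432. POLD1 was level across the arrays, and PRIM1 was the one polymerase gene higher on the MYC-labelled array than on the PI3K array, by 0.24. No probe was named for POLD2. Over the 4 polymerase genes that stayed when dim genes were left out, the PI3K median was 0.13.

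Among the roles of the members, dNTP supply had the lowest median between the oncogene arrays. TK1, the cytosolic thymidine kinase of the salvage route, had signals of 1709 on the vector array, 880.4 on the MYC-labelled array and 2233 on the PI3K array. It was 1.94-fold lower than the vector on the MYC-labelled array (log2 difference -0.96), 1.31-fold higher on the PI3K array (0.39) and 2.54-fold lower on the MYC-labelled array than on the PI3K array (-1.34). TK1 had the lowest value of all members in the first and last of these.

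RRM1 and RRM2 are the large and small subunits of ribonucleotide reductase, which makes deoxynucleotides from ribonucleotides. RRM1 had signals of 7260.5, 5972 and 9291, in the same order as TK1, at -0.28, 0.36 and -0.64. RRM2 was above background on the PI3K array only, with a signal of 363 there against 211.5 and 179.9. It was at least 1.56-fold higher there than on the vector array and at least 1.28-fold higher than on the MYC-labelled array. TYMS, which makes thymidylate, had 3220 on the vector array, 4575.5 on the MYC-labelled array and 3535 on the PI3K array. TYMS was at 0.51 on the MYC-labelled array, 0.13 on the PI3K array and 0.37 between them, so its sign was opposite to that of TK1 in the first and last of these, and both were above 0 on the PI3K array. The median of the list between the oncogene arrays, -0.82 over 4 genes, was -0.64 over the 3 above background on both and -0.50 with RRM2 at its bound.

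Of the regulators of the G1 to S transition, CCNE1 and E2F2 were measured. CCNE1, cyclin E1, had signals of 251, 670 and 475 on vector, MYC-labelled and PI3K arrays, which is 2.67-fold higher than the vector on the MYC-labelled array (1.42) and 1.90-fold on the PI3K array (0.92). CCNE1 was the member with the highest value in all 3 comparisons, and its vector signal is close to the cut-off of 233. These values rest on 1 probe. The second CCNE1 probe was below background on all arrays, at 75.4 to 99.9, and was not used. It gave 0.26 and 0.41 against the vector on the MYC-labelled and PI3K arrays, and -0.15 between them. E2F2, a transcription factor of the activating E2F class, had 346, 236 and 526. It was not above background on the MYC-labelled array and was at least 1.22-fold lower there than on the vector array and at least 1.85-fold lower than on the PI3K array. The related E2F1 (97.7 to 123) and CCNE2 (76.2 to 117) were below background on all arrays.

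CHAF1A and CHAF1B are subunits of the complex that places histones on new DNA. CHAF1B had signals of 718, 606 and 826, at -0.45 between the oncogene arrays, and CHAF1A had 287, 326 and 357. UNG, which removes uracil from DNA, had 2879, 3015 and 3022. UNG was level across the arrays, within 0.07 of the vector. UHRF1, which links replication to DNA methylation, was below background on all arrays at 116 to 152.

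**Figure D4:**
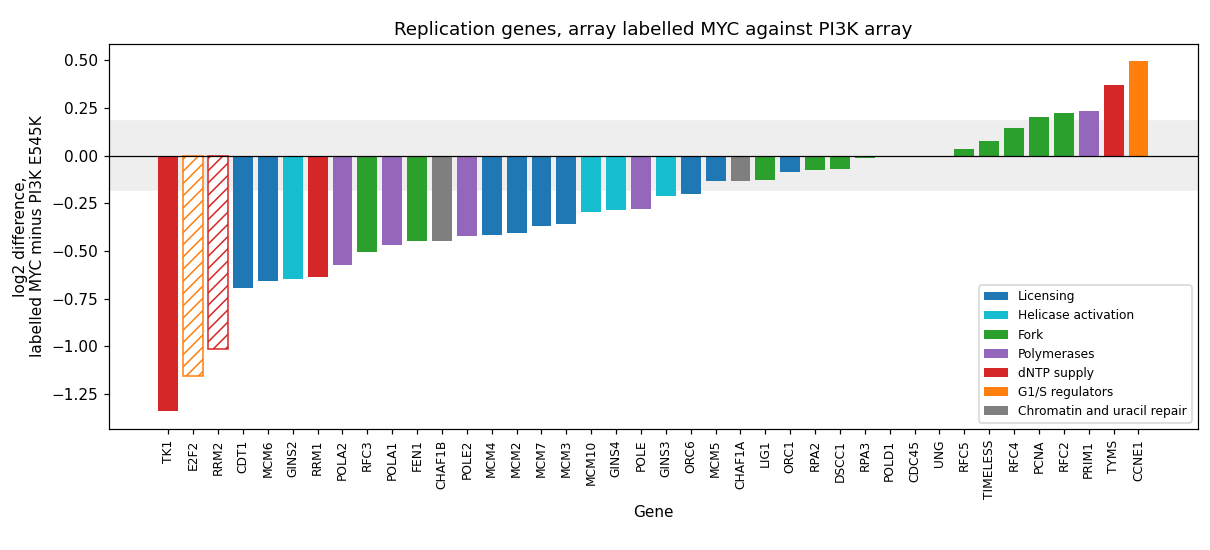
Log2 difference of the MYC-labelled array minus the PI3K array (vertical axis) for each measured member in ascending order, coloured by role. Hatched bars are below background on the MYC-labelled array, and the grey band is plus and minus 1 technical SD (0.18). TK1 is lowest at -1.34. Licensing, helicase activation, and chromatin and uracil repair genes are all below 0. PCNA, PRIM1, TYMS, CCNE1 and the brighter RFC2 probe lie above the band.

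Replication genes outside the 46 were taken from a list of 41, of which 30 were measured on the PI3K and vector arrays. Their median on the PI3K array was 0.23 against 0.05 for all genes, with 22 above 0 (73.3%, against 55.1% of all genes) and 7 at least 1.5-fold higher (23.3%, against 8.54%). The highest were HELLS, a chromatin remodeller, at 0.86, the histone-binding protein RBBP4 at 0.82 and MCMBP, which binds MCM proteins, at least 1.60-fold. On the MYC-labelled array the median was 0.06, with TIPIN, the partner of TIMELESS, at 0.85, MCM8 at -0.61 and the histone chaperone ASF1A at -0.64. Between the oncogene arrays it was -0.18 (-0.12 with bounds), with HELLS at -0.92, the helicase RECQL4 at -0.75, the histone chaperone NASP at -0.73 and TIPIN at 0.62.

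Mitosis genes, the list most like this one in the cell cycle, separated the MYC-labelled array from the other arrays more widely than the members did. Of 29 measured, 28 were below 0 on the MYC-labelled array against the vector, with a median of -0.51 where the replication genes had 0.06 (43.6% of all genes were below 0). The lowest there were KIF20A, a kinesin of cell division, at -1.26, the anaphase activator CDC20 at -0.91 and the centromere histone CENPA at -0.85. On the PI3K array 29 of 30 were above 0 (55.1% of all genes), with a median of 0.39, and the highest were the spindle motor KIF11 at 0.94, DLGAP5 at 0.87 and the proliferation marker MKI67, at least 1.81-fold higher because it was not above background on the vector array. Between the oncogene arrays the median was -0.95 and 24 of 30 were at least 1.5-fold lower on the MYC-labelled array (8.14% of all genes). The lowest were KIF20A at -1.64, KIF11, which was 2.83-fold lower, and CCNB1 at -1.44. With genes dim on 1 of the arrays at their bound, the median was -0.89 and 22 were at least 1.5-fold lower. The difference between the lists was not tested. In their promoters the CHR letters TTTGAA, an element of mitotic genes, were in 19 of 25 mitosis genes (76%), 2 of 39 replication genes (5.13%) and 18.2% of all genes. E2F letters were in 3 of the 25 mitosis genes (12%, against 3.30% of all genes).

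**Figure D5:**
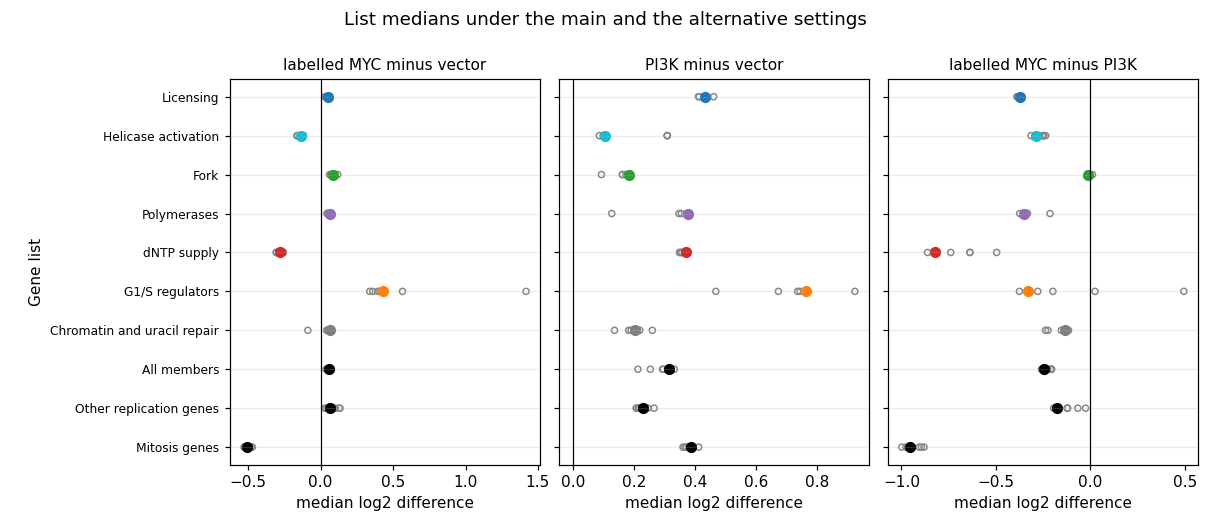
Median log2 difference (horizontal axes) of each gene list in the 3 comparisons, with filled points for the values given in the text and open points for the alternative settings. Licensing genes lie near 0 for the MYC-labelled array against the vector and between 0.41 and 0.46 for PI3K against the vector, and the mitosis genes are below 0, above 0 and below 0 in the 3 panels.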

How the data were processed

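Total RNA of 3 RWPE1 sublines was read on 1 Illumina array each. Per the labels' protocols, biotinylated cRNA was hybridised, and the submitters' processing notes name GenomeStudio. The authors deposited non-normalised signal intensity and a detection p-value per probe, which rises with the signal and was read as 1 minus p. They also deposited log2 values. For the vector and MYC-labelled arrays their differences equal those of signals divided by the 75th percentile of each array (constant 0.52). A constant of unknown origin had been taken from each probe. Deposited medians are -0.16, 0.07 and 0.04 for the vector, MYC-labelled and PI3K arrays. A further 2 scanner columns carry no name of a sample and were not used.

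Log2 differences are those of the deposited log2 table. A probe was above background at a detection p-value under 0.01, or at a scaled signal of at least 284 on the PI3K array. Symbols came from the platform annotation (21834 of 24526 probes, 21813 updated by gene ID). A gene took its brightest probe above background on at least 1 array, and a comparison covers genes above background on at least 1 of its 2 arrays. A gene dim on 1 array has a bound, its signal over the higher of the cut-off and the dim signal. With 1 array per group there is no test, so values, counts past 1.5-fold and 2-fold, and medians are given beside those of all genes. The number of arrays limits the precision. Alternatives included normexp (offset 50) with quantile normalisation in limma 3.58.1. Members, roles and lists were chosen with earlier results of these data known. Every member is accounted for by name, and of other lists the genes at least 1.5-fold apart, up to 3 each way, are named. Scripts were tested on simulated data. Promoters are from RefSeq (GRCh38.p14, 39 of 46 members).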

Additional observations from a re-analysis of the deposited data

How the results depend on the processing

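Each value was recomputed under 9 other settings: normexp with quantile normalisation, centring on the median, an offset of 50, the mean of a gene's probes, detection on all arrays, no detection filter, a detection p-value under 0.05, dim genes at their bound, and bright genes only, the last chosen after seeing the data. The median of the members stayed between 0.04 and 0.06 for the MYC-labelled array against the vector, 0.21 and 0.33 for PI3K, and -0.26 and -0.21 between them. With no detection filter the medians of all genes rose to 0.23 for the MYC-labelled array and 0.20 for PI3K. The members stood at 0.06 and 0.33 there, below all genes on the MYC-labelled array. Over bright genes the PI3K medians were 0.21 for members and 0.07 for all genes. In both settings the PI3K gap to all genes was smaller than in the main setting. The licensing median stayed between 0.41 and 0.46 for PI3K and between -0.39 and -0.36 between the oncogene arrays.

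For the MYC-labelled array against the vector, members at least 1.5-fold lower numbered 3 with normexp and quantile normalisation and 2 with centring, those at least 1.5-fold higher 2 with no filter and 0 over bright genes, and those at least 2-fold higher 0 over bright genes, where CCNE1 is left out. For PI3K, 3 of 31 bright members were at least 1.5-fold higher, near the 8.54% of all genes measured in the main setting. The polymerase median over bright genes was 0.13. Between the oncogene arrays 1 member was at least 2-fold lower with detection on all arrays, with bounds and over bright genes, and the dNTP supply median was -0.64, -0.50 and -0.64 there. The G1/S regulators, 2 measured genes, moved most: 1.42 for MYC with detection on all arrays, 0.47 for PI3K with no filter, and between the oncogene arrays 0.49 with detection on all arrays and 0.025 with no filter, both against -0.33. Values of single members changed sign in 3 cases with normexp and quantile normalisation, 2 with centring and 1 with the mean of probes. Centring shifts all differences by 1 constant, and the sign change with the mean of probes comes from averaging both RFC2 probes. The cause of the changes with normexp was not tested, and the others follow from which genes a setting keeps or puts at a bound. No paired analysis was possible because each group has 1 array.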

Other observations

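Of the enzymes that handle thymidine and uracil nucleotides outside the 46 genes, TYMP was far lower on both oncogene arrays. TYMP, thymidine phosphorylase, which breaks thymidine down, had scaled signals of 14465 on the vector array, 2318 on the MYC-labelled array and 2687 on the PI3K array. It was thus 6.24-fold and 5.38-fold lower than the vector. DUT, which removes dUTP, had 967, 878 and 1655, at 0.78 for PI3K against the vector and -0.91 between the oncogene arrays. TK1 and RRM1 had the same order of arrays, but so did members of other roles, such as MCM6 and GINS2. The MYC-labelled and vector signals of DUT were less than 1.5-fold apart. RRM2B, the p53-induced small subunit of ribonucleotide reductase, had 489, 745 and 535 and was 0.61 above the vector on the MYC-labelled array.

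Of the E2F and RB list, 12 of 15 genes were measured against the vector, with medians of 0.29 on the MYC-labelled array and 0.30 on the PI3K array. E2F5, a member of the repressor class, had signals of 397, 944 and 483 and was 2.38-fold higher than the vector on the MYC-labelled array, where E2F7, another repressor, was 0.64 higher. CCNA2, the S and G2 cyclin, was 0.67 above the vector on the PI3K array. Between the oncogene arrays the median of the list was -0.02, with E2F5 at 0.97, CCNA2 at -1.06 and its kinase partner CDK2 at -0.65. Each value rests on 1 array per group.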
